A study of Macrobrachium rosenbergii with 20 samples.

Results

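Testis-only transcripts whose level varied between testes of the giant freshwater prawn (Macrobrachium rosenbergii) are described here, 194 of the 30260 transcripts in the table. They were chosen by their measured levels. The level used is a normalised count, the rounded estimated count divided by a DESeq2 median-of-ratios size factor from all 20 libraries. A transcript was taken when its median was at least 100 in testis and under 10 in ovary and in the hepatopancreas of both sexes, and when the highest testis exceeded the lowest by more than 20-fold after 1 was added to each. The medians alone selected 220 transcripts, so 194 (88.2%) of the transcripts restricted to testis varied this much, and the other 26 ranged 20-fold or less. These values chose the transcripts, so the levels in testis, ovary and hepatopancreas, and the ranges between testes, are given as a description and not as a test.

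RNA came from adult prawns of the strain label CMr1, with no treatment in the labels, and formed 4 groups of 5 libraries: testis of males, ovary of females, hepatopancreas (the digestive gland) of males and hepatopancreas of females. The labels number the samples 1 to 5 within each group and carry a weight gain without a unit, but do not say whether the 5 samples of a group are separate animals, nor the morphotype or reproductive state of the males. Where replicates are not separate animals, p-values measure only the spread between these samples. Library totals ran from 12822717 to 17102848 counts in testis, from 8670640 to 13232366 in ovary, from 13910322 to 18355650 in male hepatopancreas and from 9025144 to 15592052 in female hepatopancreas.

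In the testis of decapod crustaceans, germ cells divide, pass through meiosis and form sperm without a flagellum, beside supporting somatic cells. Each stage of this process uses transcripts of its own in animals studied so far, so the RNA of a whole testis mixes many stages. In bulk tissue, fewer cells of a type and less RNA per cell cannot be told apart. The table names transcripts by a sequencing ID only, none of these names was found among the 31758 genes of the RefSeq table, and no sequence of these transcripts was used here, so no protein, pathway or cell type can be given to a member. An ID begins with a class, HQ or LQ, goes on with a sex word, and ends with a number after the letter f and a length in bases.

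Testis 5 stood apart from the other testes in these transcripts. The 194 transcripts took 57.3%, 50.1%, 43.1% and 37.8% of all counts in testes 1 to 4 and 9.64% in testis 5. Their mean share of testis counts was 39.6% ± 18.3 (SD, n = 5), and without testis 5 it was 47.1%. Testis 5 had the highest total of the testes, 17102848 counts, and the most transcripts with a count, 8645 against 7862 to 8291 in testes 1 to 4. Most of the selected transcripts owe their selection to it. With the same thresholds on testes 1 to 4 alone, 33 transcripts were selected, 27 of them among the 194. Leaving out any other testis gave 182 to 193.

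Most of the transcripts shared 1 pattern, a level in testes 1 to 4 and little or none in testis 5. Testis 5 was the lowest testis for 172 of 194, and this number was the same under TMM scaling and under library totals alone. For 159 transcripts testis 5 alone lay more than 20-fold below the highest testis. Those 159 took 48.8%, 45.3%, 38.0% and 33.9% of counts in testes 1 to 4 and 0.129% in testis 5. These 159 were picked for a low level in testis 5, so their low share there follows from the choice and is a description. The 26 testis-only transcripts with a range of 20-fold or less took 12.7% of counts in testis 5. In testes 1 to 4 they took 13.7%, 9.24%, 13.8% and 13.7%. Their limited range was part of their choice, which bounds how far testis 5 can lie from the other testes. Their median normalised count was 1213, 762, 675.5 and 563 in testes 1 to 4 and 505 in testis 5. Testis 5 was the lowest testis for 11 of these 26. Their testis medians ran up to 1251774, with a median of 632, so a few transcripts can carry the summed share.

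**Figure D1:**
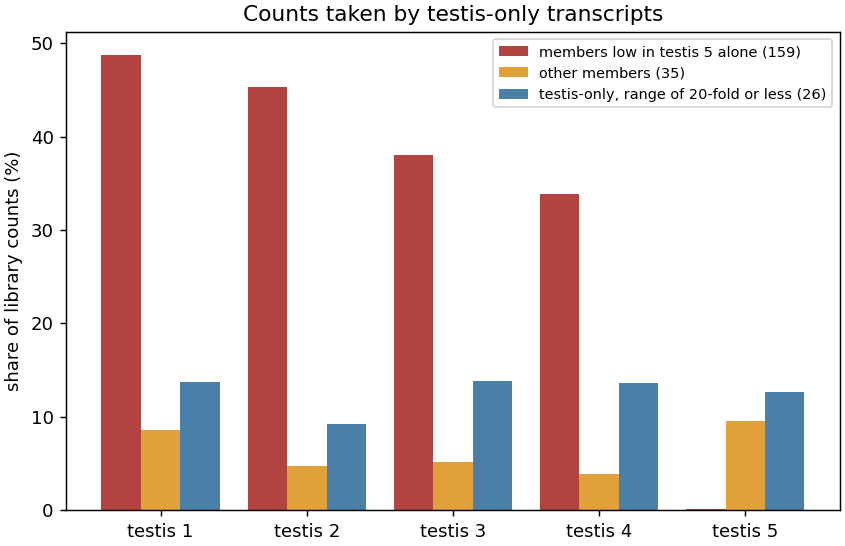
Share of each testis library's counts (percent, y axis) taken by the 159 transcripts low in testis 5 alone, the other 35 selected transcripts and the 26 testis-only transcripts with a range of 20-fold or less, in each of the 5 testes. The first set holds 33.9% or more in each of testes 1 to 4 and 0.129% in testis 5. The third lies between 9.24% and 13.8% in all 5. Both sets were chosen by their levels in these testes, so the shares are a description.

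The size of the gap ran over several orders of magnitude. Over all 194 transcripts, the median of testes 1 to 4 exceeded testis 5 by a median of 984-fold, with 135-fold and 3542-fold as the quartiles (1 added to each normalised count). The gap exceeded 20-fold for 170 of 194 (87.6%). Among the 3989 other transcripts with a testis median of at least 100 but not restricted to testis, the same ratio had a median of 1.09, with quartiles of 0.652 and 2.03, and exceeded 20-fold for 101 (2.53%). The other 26 testis-only transcripts had a median ratio of 1.62. The first share follows in part from the choice of transcripts by their range, and no test was made between these lists. On library totals in place of size factors the 3 median ratios were 643, 0.595 and 0.735 in the same order. The scaling thus decides on which side of 1 the comparison lists lie, while the selected transcripts were far lower in testis 5 under both.

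**Figure D2:**
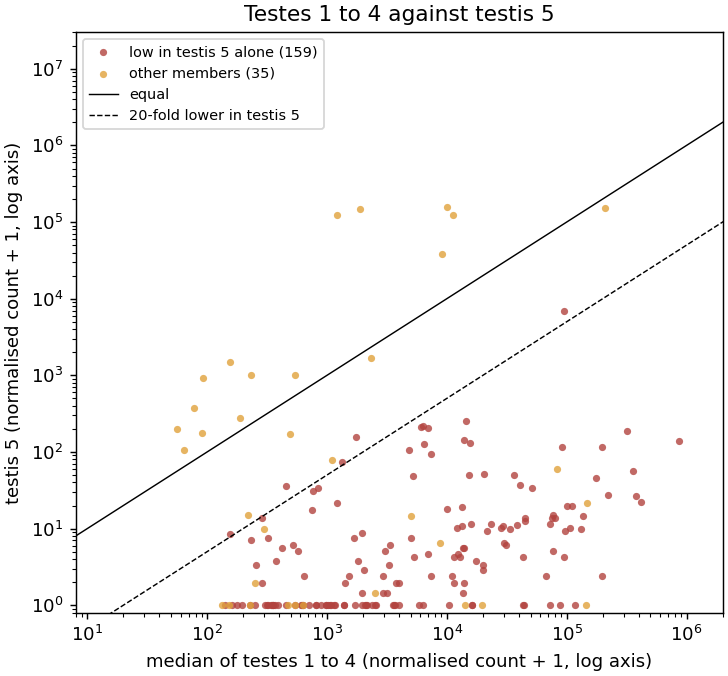
Each point is 1 of the 194 transcripts, with the median of testes 1 to 4 on the x axis and testis 5 on the y axis, both as normalised count plus 1 on log axes. The solid line marks equal levels and the dashed line a level 20-fold lower in testis 5; 170 transcripts lie below the dashed line and 14 above the solid line.

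In testis 5 many of these transcripts were at or near the limit of counting. Of the 194, 64 had no count there, which allows a normalised count of up to 1.39 (3 counts, counting error only), and 125 had a normalised count under 10. Only 31 reached 100 in testis 5, against 183, 180, 188 and 186 in testes 1 to 4. The median normalised count of the 194 was 5727, 4415, 3272 and 2552 in testes 1 to 4 and 3.69 in testis 5. Testes 1 to 4 lay within a few fold of each other and testis 5 lay far below them.

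The order among testes 1 to 4 rested on the scaling. By size factors, testis 1 was the highest for 89 transcripts and testis 2 for 80. The size factor was 0.621 in testis 1 and 2.17 in testis 5, which raises normalised counts in testis 1. On library totals alone, testes 1, 2, 3 and 4 were the highest for 37, 76, 32 and 39 transcripts, and the median CPM (counts scaled by library total) were 241, 240, 278 and 239 in testes 1 to 4 and 0.468 in testis 5. No order of testes 1 to 4 is therefore given. Testes 1 to 4 resembled each other transcript by transcript, with Pearson correlations of log2 normalised counts from 0.73 to 0.86 across the 194 transcripts. Testis 5 correlated with them at 0.05 to 0.24. Rank (Spearman) correlations were 0.81 to 0.9 among testes 1 to 4 and 0.27 to 0.32 between testis 5 and the others. These correlations describe transcripts of the same libraries, selected for their range, and the transcripts are not independent replicates. In testis 5, 64 of the 194 had no count and 125 a normalised count under 10. Values near the limit of counting therefore weigh on the correlations with testis 5.

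**Figure D3:**
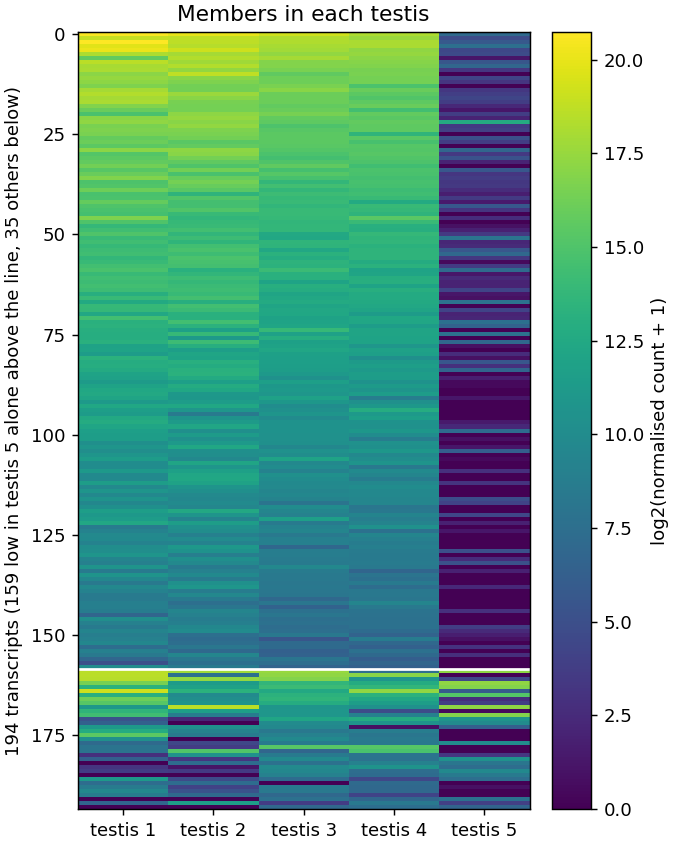
Level of the 194 transcripts (rows) in the 5 testes (columns), coloured by log2 of the normalised count plus 1. For the 159 transcripts above the white line, testis 5 alone lies more than 20-fold below the highest testis. The 35 below the line differ in which testes are low.

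Over testes 1 to 4 the selected transcripts varied far less. There the highest exceeded the lowest by a median of 4.61-fold, against 2023-fold over all 5 testes, and stayed at 5-fold or less for 105 of 194. The drop follows in large part from the choice by range, as testis 5 was the lowest testis for 172 of 194. Other testis-only transcripts had a median range over testes 1 to 4 of 4.08-fold, and the 3989 transcripts not restricted to testis 1.98-fold. The range over testes 1 to 4 exceeded 20-fold for 32 of the 194. The widest range over all 5 testes was 434013-fold, for a transcript with no count in testis 5, so this value rests on the added 1.

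**Figure D4:**
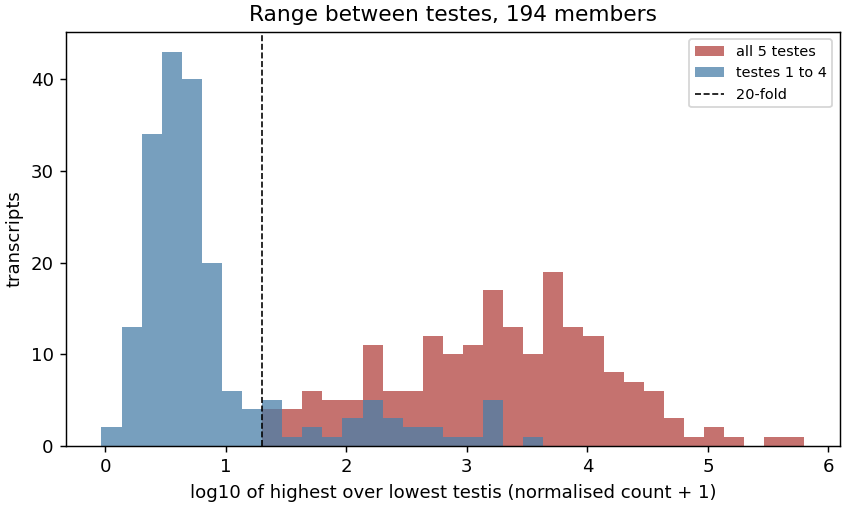
Number of transcripts (y axis) by the log10 of highest over lowest testis, with 1 added to each normalised count (x axis), over all 5 testes and over testes 1 to 4. The dashed line marks 20-fold, which all 194 exceed over 5 testes and 32 exceed over testes 1 to 4.

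The transcripts at the head of the list by normalised count were mostly short. Transcript transcript_LQ_Female_transcript21746/f2p0/788, 774 bases long, ranked 1. It had normalised counts of 1578525, 1111925, 604791 and 305262 in testes 1 to 4 and 138 in testis 5. Each of testes 1 to 4 lay far above testis 5, which was still above the ovary. Its highest ovary value was 4.40 in ovary 1, with no count in any other ovary or in any hepatopancreas library. By summed counts it was 480000-fold higher in testis than in ovary (95% interval 268000 to 962000) and at least 505000-fold higher than in male hepatopancreas, against 3 counts over the group. Intervals and bounds beside such folds cover counting error only and leave out the spread between testes.

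Transcript transcript_HQ_Female_transcript21494/f2p0/705, 691 bases long, ranked 2 and behaved alike. Its normalised counts were 504816, 437212, 314664 and 198114 in testes 1 to 4 and 25.4 in testis 5. Testes 1 to 4 were within 2.55-fold of each other, and testis 5 again stood alone. Outside testis it had 8 counts in ovary, for a fold of 285000 (145000 to 661000), and 1 count in male hepatopancreas. Per 1000 bases of length, the median testis level was 781384 for the first of these transcripts and 455375 for the second.

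The 10 transcripts of highest testis median took 31.1%, 21.4%, 22.3% and 17.0% of all counts in testes 1 to 4 and 1.92% in testis 5. They were 555 to 2230 bases long, 9 of the 10 were under 1000 bases, and 9 of the 10 also led the list when levels were taken per length. For 9 of them testis 5 lay more than 20-fold below the highest testis. The 10 most abundant selected transcripts of each library held 58.6%, 50.5%, 51.9% and 48.9% of the selected transcripts' counts in testes 1 to 4, and 99.1% in testis 5. In testis 5 only 1 of these belonged to the 10 of highest testis median, so its small share came mostly from other transcripts.

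A small set ran against the main pattern. Transcript transcript_HQ_Female_transcript21807/f2p0/788, 789 bases long and rank 6, had normalised counts of 383382, 228453, 191022 and 191 in testes 1 to 4 and 151193 in testis 5. Testis 4 alone was low. It had 25 counts in ovary, all in ovary 1, for a fold of 69400 (47000 to 107000), and 1 count in male hepatopancreas. Transcript transcript_HQ_Female_transcript7359/f2p0/1627, 1624 bases long and rank 54, had 91118, 2696, 13142 and 6932 in testes 1 to 4 and 157676 in testis 5. Here testis 5 was the highest and testis 2 the lowest, and no ovary or hepatopancreas library held a count, so it was at least 248000-fold higher in testis than in ovary and at least 71000-fold higher than in male hepatopancreas.

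**Figure D5:**
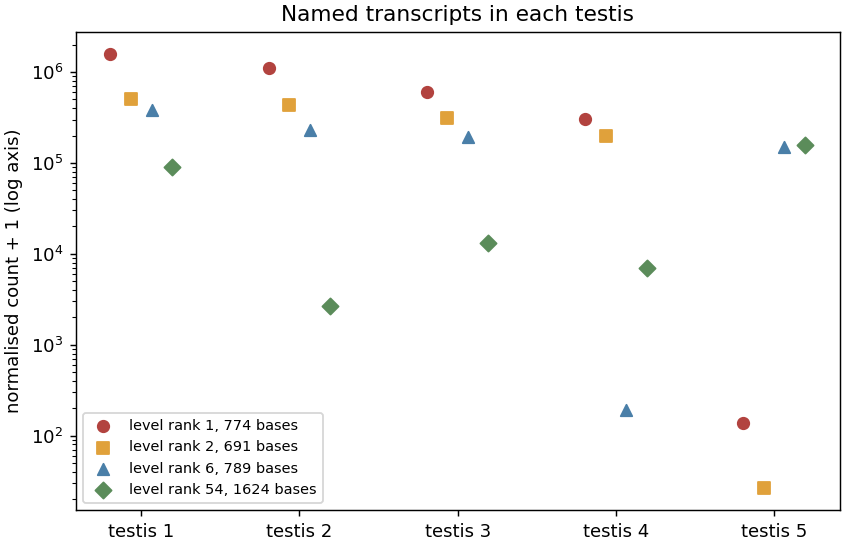
Normalised count plus 1 (log axis) of the 4 named transcripts in each of the 5 testes, labelled by their rank in testis median and their length. The transcripts of rank 1 and 2 drop in testis 5, the transcript of rank 6 drops in testis 4, and the transcript of rank 54 is highest in testis 5.

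Testis 5 exceeded the median of testes 1 to 4 for 14 of the 194, and exceeded each of them for 7. These 7 were 1355 to 2060 bases long and had normalised counts of 914 to 157676 in testis 5. They took 0.549%, 0.0426%, 0.386% and 0.285% of counts in testes 1 to 4 and 5.64% in testis 5. Testis 2 held the lowest level for all 7 by size factors and by TMM, and for 6 of the 7 by library totals. A set of 7 transcripts, 1 of them also among those highest in testis 5, lay more than 20-fold below the highest testis in both testis 1 and testis 2. Their median normalised count was 8.05 and 1.20 in testes 1 and 2, against 789, 182 and 200 in testes 3, 4 and 5. Among these 7, the transcript of rank 164 had no count in testis 5, against 42250 and 39271 in testes 3 and 4. For 3 of this second set, neither testis 1 nor testis 2 held a count. Counted by which testes lay more than 20-fold below the highest, testes 2 and 5 were low together for 6 transcripts, testes 4 and 5 together for 4 and testis 2 alone for 5, of which 4 were highest in testis 5.

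The selected transcripts were also described by level. The testis median entered their selection and is close to the upper value of the gap. A larger gap at a higher level therefore follows in part from how the gap is calculated. In the upper 97 of the 194 by testis median, 88 were low in testis 5 alone and the median gap was 3107-fold. In the lower 97, 71 were low in testis 5 alone and the median gap was 323-fold. A lower level leaves less room for a gap above the counting limit, and its part in this difference was not tested. Testis medians of the 194 ran from 100 to 604791, with a median of 2546, and 64 exceeded 10000.

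Outside testis these transcripts were at trace levels in most libraries. No count was found in any of the 15 ovary and hepatopancreas libraries for 80 of 194, and 157 stayed under a normalised count of 10 in all 15. Their summed share was 39.6% ± 18.3 of testis counts, 0.331% ± 0.713 of ovary counts, 0.00086% ± 0.00078 of male hepatopancreas counts and 0.00563% ± 0.00904 of female hepatopancreas counts (SD, n = 5 each). Single libraries set the ovary and female hepatopancreas values. Ovary 3 held 1.60%, against at most 0.0376% in the other ovaries, and female hepatopancreas 4 held 0.0215%, against at most 0.00468% in the other females.

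The name testis-only, which rests on medians, does not hold in every library. Of the 194, 12 reached a normalised count of 100 outside testis, 7 of them in an ovary, 5 in a female hepatopancreas and 1 in a male hepatopancreas library, with 1 counted in both sexes. A pair of transcripts, named here after their values were seen, show the extremes. Transcript transcript_HQ_Female_transcript3221/f3p0/2170 had 38.7, 3.60, 4635, 6933 and 1684 in testes 1 to 5, 74418 in ovary 3, 19.2 in ovary 1 and no count in the other ovaries. It made up 94.6% of the selected transcripts' counts in ovary 3, whose share without it was 0.0872%. Transcript transcript_HQ_Female_transcript848/f3p0/3001 had 32.2, 204, 175, 105 and 0 in testes 1 to 5, but 2679 in female hepatopancreas 4, 336 in male hepatopancreas 4 and 108 in male hepatopancreas 5, with no count in the other hepatopancreas libraries. Ovary 3 exceeded every testis for the first of the pair, and female hepatopancreas 4 and male hepatopancreas 4 did so for the second.

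The selected transcripts were shorter, and more often of class LQ, than other transcripts abundant in testis. Their median length was 1032 bases, and 94 of 194 (48.45%) were under 1000 bases, against 10 of 26 (38.5%) of the other testis-only transcripts and 12.6% of the 3989 transcripts at a testis median of at least 100 but not restricted to testis. The LQ class made up 17 of 194 (8.76%), against 1 of 26 and 0.652%. The word Female stood in 190 of 194 IDs although the transcripts were abundant in testis alone, and the word Male in 4 (2.06%), against 2.71% of the 3989. The number after f had a median of 3, against 2 in the 26 other testis-only transcripts and 4 in the 3989. In PacBio isoform names such a number counts full-length reads, but the sources used here do not say what it stands for. These are descriptions of lists of transcripts and were not tested.

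Estimated counts of the selected transcripts were often not whole numbers. For 169 of 194 (87.1%) at least 1 testis had an estimated count that was not whole (to within 1e-06), against 73.1% of the 26 other testis-only transcripts and 43.4% of the 3989. A fractional estimate can arise when a program divides reads between similar sequences, so the level of 1 entry among near-identical copies or isoforms is uncertain. The length given in the table differed from that in the ID for 85 of 194 (43.8%), against 26.9% and 18.1%. The part of either in the differences between testes was not tested.

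The testis-only transcript just inside the range limit varied 21.4-fold and the one just outside 19.9-fold. The lowest testis median selected was 100 and the highest left out was 99.9. The highest median in another group was 8.61 among those selected, and the lowest among those left out for it was 10.6.

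Transcripts that marked the other tissues were followed in testis by the same kind of rule. The 471 transcripts with a median of at least 100 in both hepatopancreas groups and under 10 in both gonads took 0.0454%, 0.0240%, 0.00622% and 0.0116% of counts in testes 1 to 4 and 0.0145% in testis 5, so testis 5 lay within the other testes. The 115 transcripts restricted to ovary took at most 0.0071% in testes 1 to 4 and 0.138% in testis 5. Transcripts with a normalised count of at least 100 in 1 testis and under 10 in each of the others numbered 16, 10, 2 and 5 for testes 1 to 4 and 93 for testis 5. Those 93 took 3.86% of testis 5 counts, and 67 of them also reached 100 in female hepatopancreas 4, where the 93 took 1.49%. In each of the other ovary and hepatopancreas libraries at most 2 of the 93 reached 100. The part of these transcripts in the low levels of the 194 in testis 5 was not tested.

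The edgeR comparisons of testis with the other tissues used contrasts that chose these transcripts, so their calls are given as a description. Between testis and ovary, 101 of the 194 passed the filter of 10 counts in 5 libraries, and 98 were called higher in testis at an edgeR adjusted p under 0.05, where 28.4% of all 7045 transcripts tested were called higher in testis. Between testis and male hepatopancreas, 85 passed and 84 were called higher, where 21.9% of 7094 were. A transcript with fewer than 10 counts in 1 testis and none in the other tissue reaches 10 in at most 4 libraries. Of the 194, 101 had fewer than 10 counts in testis 5, and another 11 in a different testis only. With 10 counts in 4 libraries, a filter chosen after the data were seen, 192 passed and 187 were called against ovary, where 29.6% of all tested were, and 190 passed and 187 were called against male hepatopancreas, where 23.3% were.

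Whether the level in testis went with growth was asked through the weight gain label, which did not enter the selection. The label was 2.05, 2.83, 2.61 and 1.48 for testes 1 to 4 and 2.74 for testis 5. Testis 5 lay between testes 3 and 2 in weight gain. The slope on weight gain over the 5 testes was called by edgeR for 0 of the 82 that passed the filter, and for 0 of 5572 transcripts tested (0%). At an unadjusted p under 0.05 there were 1 of the 82 and 54 of the 5572, and DESeq2 called 6 of 5572 and 0 of the 82. Without testis 5, edgeR called 0 of 181, with 10 (5.52%) at an unadjusted p under 0.05, and 0 of 5810 transcripts over the table, with 126 (2.17%) at that p. With 5 libraries only large slopes could be found, so these counts do not show that the levels are unrelated to weight gain.

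Male and female hepatopancreas could not be compared for these transcripts. None of the 194 reached 10 counts in 5 of the 10 hepatopancreas libraries, where 4.42% of 6582 tested transcripts were called by edgeR in either direction. With 10 counts in 4 libraries, 1 passed and 0 were called by edgeR, where 4.19% of 6798 were. Without any filter 69 had a count and 0 were called by edgeR, with 3 (4.35%) at an unadjusted p under 0.05, where 0 of all 9738 were called and 2058 (21.1%) had such a p. DESeq2 tested none of them at the first filter. At this depth a sex difference of these traces was not detectable.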

How the data were processed

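Estimated counts per transcript were used as deposited by the authors, without normalisation; 58.7% of the values above 0 were whole (tolerance 1e-06). Per the submitters' processing notes, DESeq 1.10.1 and Bowtie 0.12.2 were used, in roles the notes leave out; the counter and reference transcripts were not given in the sources used here. The length in bases is the deposited one. Groups follow the labels.

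Counts were rounded. Size factors came from DESeq2 1.42.0. Tests used edgeR 4.0.16 in R 4.3.3 (quasi-likelihood test, TMM on all transcripts), each on its own groups. A transcript needed at least 10 counts in 5 libraries of the fit. Calls were made at a Benjamini-Hochberg adjusted p under 0.05 over all transcripts tested. The code was also run on simulated data with far smaller changes and spread than the selected transcripts show, so that run does not cover them. Exact binomial 95% intervals and bounds against 3 counts cover counting error only. The members and lists were chosen with earlier results of these data known. Named were the 2 of highest testis median and the 2 of highest median not lowest in testis 5.

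Same-numbered testis and male hepatopancreas libraries deviated together (correlations of deviations from group means 0.15 to 0.258 in 5 of 5 pairs). Their best-correlated partner was the same-numbered library in 5 of 5 pairs. Their numbers were therefore taken as a possible pairing, used only in a refit with replicate number as a block. The main tests did not pair libraries. The columns of the testis and male hepatopancreas libraries are named by male and number. The weight gain labels of the 5 pairs differ, by 0.01 to 1.35, so the same animal is not shown.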

Additional observations from a re-analysis of the deposited data

Results flagged for a closer look

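Among 22 sets of 5 libraries examined, 8 held a library whose gap to its neighbour was more than 0.71 of the whole range. That cut flags about 1 in 20 sets of unselected, normally distributed values. The transcripts in these sets were chosen by the same values, and several sets share libraries. The 8 of 22 therefore cannot be set against that rate. The 194 transcripts took 1.60% of counts in ovary 3 and 0.0215% in female hepatopancreas 4, each far above the rest of its group. The 159 low in testis 5 alone took 0.035% in ovary 1, against at most 0.00523% in the other ovaries, and 0.0211% in female hepatopancreas 4. The other 35 took 1.60% in ovary 3 and 0.00392% in female hepatopancreas 3. In testis, the 26 testis-only transcripts with a range of 20-fold or less took 9.24% in testis 2, the lowest of the 5, and the 115 ovary-restricted transcripts took 0.138% in testis 5, the highest.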

How the results depend on the processing

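The number selected was 194 and stayed between 173 and 224 under the other scalings and thresholds (181 by library totals alone, 175 of them among the 194), and between 33 and 193 when a testis was left out, with 33 without testis 5. The mean share was 35.1% to 47.1% when a testis was left out. Calls moved with the filter, which sets how many of the 194 are tested. Against ovary, 98 were called of 101 tested (28.4% over all transcripts), 189 of 194 without a filter (24.2%), 40 of 42 at 50 counts (25.9%), 187 of 192 at 10 counts in 4 libraries (29.6%), and 97 to 185 when a library was left out with that filter (25.7% to 30.6%). Against male hepatopancreas, 84 of 85 were called (21.9%), and 191 of 194 (18.4%), 36 of 37 (22.8%), 187 of 190 (23.3%) and 85 to 186 (19.4% to 25.7%) under the same settings. With the replicate block, 95 and 84 of the selected transcripts were called (24.6% and 19.7%), and that pairing changed no other count of them by over 1.5 times. Same-numbered testis and ovary libraries (correlations of deviations -0.092 to 0.08) and male and female hepatopancreas libraries (-0.054 to 0.069) share only a number. With any library left out, at most 1 of the selected transcripts could be tested in the sex comparison, so its 0 calls are uninformative. For weight gain, 0 of the 82 to 181 selected transcripts tested were called when a testis was left out. Over all transcripts those refits called 0 of 5606 to 5886. Over all transcripts, calls between male and female hepatopancreas numbered 291 in edgeR, 1213 in DESeq2, 478 at 50 counts, 0 without a filter (2058 at an unadjusted p under 0.05), 0 with the replicate block (1364), and 0 to 673 when a library was left out (1364 to 1983). The 8 log2 changes of the 4 named transcripts kept their direction and their side of 0.05 in all 136 refitted values. These contrasts chose the transcripts, so the kept direction and the calls higher in testis follow in large part from that choice. Depth limits the 64 transcripts with no count in testis 5, whose gaps depend on the added 1.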
